A study of Schizosaccharomyces pombe with 8 samples.

Results

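Transcript levels after hydrogen peroxide were compared between a fission yeast (Schizosaccharomyces pombe) strain labelled ∆wee1 and a wild-type strain, over the nuclear protein-coding genes. A gene was included if its identifier carried 1 of the 6 prefixes of nuclear genes (SPAC, SPAP, SPBC, SPBP, SPCC or SPCP), if RefSeq annotates it as protein-coding, and if its mean level over the 4 groups of the series was at least 1 FPKM. FPKM is a read level corrected for gene length and for the size of the library. These rules kept 4949 of the 7092 genes in the tables. A further 157 protein-coding genes were under the minimum and 35 genes above it were not annotated as protein-coding. The genes nearest the minimum were SPAC683.03 at 0.997, yip12 at 0.992 and SPAC17A2.10c at 0.969 FPKM outside it, and mpf1 at 1.0, SPACUNK4.09 at 1.02 and crp79 at 1.03 FPKM inside it.

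The series holds 8 libraries in 4 groups of 2, and the comparison rests on the 4 libraries treated with 20 mM H2O2 for 15 min. The strain labelled ∆wee1 is h- and carries wee1::ura4+ together with leu-32, as its label spells it, and ura4-D18. The wild type is h- leu1-32 ura4-D18. Both were grown to mid-log phase in YES, a rich medium, and both carry the minus mating type and leucine auxotrophy. The wee1 disruption brings in a working ura4 gene, so the strains differ in uracil synthesis as well as in wee1. Each strain was also sampled untreated. The 2 libraries of each group are already combined in the files, which leave a single pooled FPKM per gene. The spread between libraries is therefore not visible, and the read depth is unknown. Replicates are named in the labels, but not as separate cultures, so the authors' p-values measure only the spread between these samples, which may be technical. A pool averages over the cell cycle: more cells in a phase and more RNA per cell cannot be told apart.

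Wee1 is a protein kinase that phosphorylates the cyclin-dependent kinase Cdc2 on an inhibitory tyrosine and so delays entry into mitosis. The phosphatase Cdc25 removes that phosphate, and the kinase Mik1 acts beside Wee1. Cells without Wee1 divide at a small size. Hydrogen peroxide activates the stress kinase Sty1, which acts through the transcription factor Atf1, and the factor Pap1, which controls antioxidant genes. Strong peroxide signals mostly through Sty1, while Pap1 responds best to mild doses.

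The disruption label was checked first on the transcripts of the strain markers. The wee1 gene (SPCC18B5.03, chromosome III:721788-725835) stood at 15.5 FPKM in the H2O2 pool labelled ∆wee1 and 8.17 FPKM in the wild-type H2O2 pool, and at 16.1 FPKM under the ∆wee1 label and 8.91 FPKM in wild type when untreated. The transcript was thus higher under the disruption label, by a log2 ratio of 1.13 ± 0.22 with H2O2, and the authors' deposited table called it at q = 0.000819. The pooled values do not say which part of the gene the reads came from, so they neither show nor exclude a disrupted reading frame. For this reason the pools are called by their label, and every direction below is that of the pool labelled ∆wee1 against wild type. The second marker went with the label: ura4 (SPCC330.05c, chromosome III:115589-116726) stood at 235 and 185 FPKM in the H2O2 and untreated pools labelled ∆wee1, against 0.0704 and 0.131 FPKM in wild type. In the authors' deposited table ura4 had q = 0.546 with H2O2, so this large difference is not among the calls. The leu1 gene, which the labels give as mutant in both strains, had 669.9 FPKM in the H2O2 pool labelled ∆wee1 and 1044 FPKM in wild type. The minus mating type was visible in both H2O2 pools, with the M-factor pheromone gene mfm2 at 79.0 FPKM in the pool labelled ∆wee1 and 221 FPKM in wild type.

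The pools differed in how much of their signal came from ribosomal RNA genes. These genes held 3.19% of summed FPKM in the H2O2 pool labelled ∆wee1 and 22.2% in the wild-type H2O2 pool, and 10.9% of the untreated pool labelled ∆wee1 and 3.13% of the untreated wild-type pool. The protein-coding genes compared here held 93.5% of the H2O2 pool labelled ∆wee1 and 73.2% of the wild-type H2O2 pool. Values were therefore rescaled to the same sum over these genes, and ratios are log2 of rescaled FPKM + 1, while levels are printed as deposited. The ribosomal protein genes took 48.3% of that sum in the H2O2 pool labelled ∆wee1 and 56.2% in wild type, so equal sums place the median gene above 0. The median log2 ratio was 0.35 after rescaling and 0.05 as deposited, a shift of 0.30, and each group of genes below is read against 0.35. The part of the ribosomal RNA share in any result was not tested.

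A gene is said to have risen or fallen where the authors' deposited table, made with Cuffdiff, gives q under 0.05 and the rescaled ratio has the same sign. By that rule 370 of 4940 genes tested rose (7.49%) and 349 fell (7.06%) in the H2O2 pool labelled ∆wee1. Half-widths given as ± are standard errors implied by the fold change and statistic in the authors' deposited table. No call changed direction when values were left as deposited, scaled by the median ratio or scaled by the upper quartile. For values as deposited the rule fixes this, since it needs the sign of the authors' fold change. Median-ratio and upper-quartile scaling lay close to the deposited scale, with median log2 ratios of 0.03 and 0.06 beside 0.05. The median rescaled ratio was 0.95 among genes that rose and −0.30 among those that fell, which is 0.60 above and 0.65 below the median of all genes. At least 2-fold after rescaling, 170 rose (3.44%) and 17 fell (0.344%), and with median-ratio scaling these became 82 (1.66%) and 45 (0.911%). Of the 349 falls, 118 lay within 1 standard error of 0 after rescaling. By a z test on the rescaled ratio with those standard errors, 571 genes were higher and 34 lower. By the same test after median-ratio scaling, here called the median-scaled z test, 126 were higher and 83 lower.

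**Figure D1:**
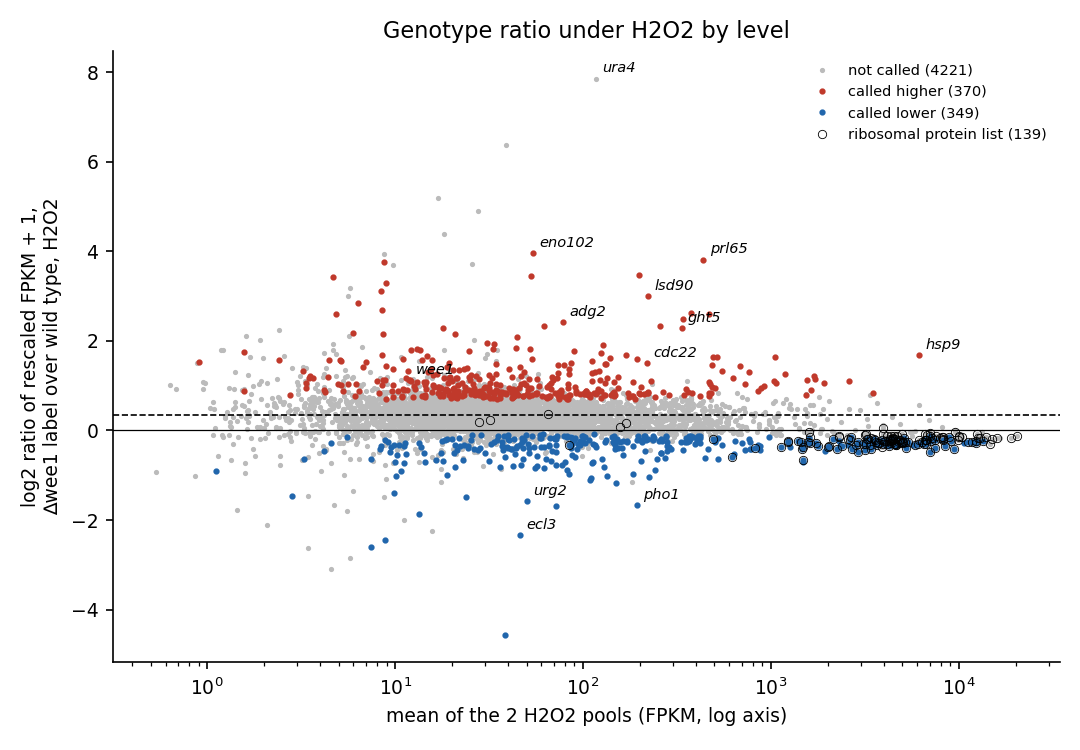
Log2 ratio of the pool labelled ∆wee1 over wild type under H2O2 (vertical axis, rescaled FPKM + 1) against the mean level of each of the 4949 genes (horizontal log axis, FPKM), with genes that the authors' deposited table calls higher or lower in colour. The cloud is centred on the median of 0.35, with the 370 rises above it and the 349 falls below 0.

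The first group described is that of genes that control Cdc2 itself. Of 19 measured, the authors' deposited table called 6 higher (31.6%, beside 7.49% of all genes) and 1 lower (5.26%, beside 7.06%), and their median log2 ratio was 0.61 beside 0.35 over all genes. The largest rise was in slp1, which activates the anaphase-promoting complex. It had 21.4 FPKM in the H2O2 pool labelled ∆wee1 against 10.6 FPKM in wild type (log2 ratio 1.24 ± 0.46). Next came wee1 itself, at 1.13 ± 0.22. The kinase gene cdr1, whose product inhibits Wee1, had 24.8 FPKM under the ∆wee1 label against 17.1 FPKM in wild type (0.80 ± 0.22), and mcs6, which encodes a kinase that activates Cdc2, had 52.9 FPKM under the ∆wee1 label against 37.6 FPKM in wild type (0.79 ± 0.23). The other rises were in suc1, which encodes a Cdc2-binding protein, at 0.78 ± 0.21, and in pom1, a polarity kinase gene, at 0.77 ± 0.22. The B-type cyclin gene cig1 fell, with 15.1 FPKM in the pool labelled ∆wee1 and 21.8 FPKM in wild type, although its rescaled ratio of −0.21 ± 0.24 was within 1 standard error of 0. By the median-scaled z test 1 of the 19 was higher and 0 were lower.

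Of the genes of the switch, cdc2, cdc13, mik1, rum1 and cdc25 were not called under H2O2. Cdc2's own gene had 58.1 FPKM in the pool labelled ∆wee1 and 61.6 FPKM in wild type (cdc2, 0.22 ± 0.26, −0.08 as deposited, q = 0.889 in the authors' deposited table). The mitotic cyclin gene cdc13 had 78.9 FPKM under the ∆wee1 label against 62.9 FPKM in wild type (0.63 ± 0.22), the backup kinase gene mik1 had 8.36 FPKM under the ∆wee1 label against 6.88 FPKM in wild type (0.52 ± 0.26), and the Cdc2 inhibitor gene rum1 had 25.2 FPKM under the ∆wee1 label against 19.5 FPKM in wild type (0.65 ± 0.23). The phosphatase gene cdc25 had 10.2 FPKM in the H2O2 pool labelled ∆wee1 and 11.9 FPKM in wild type (0.08 ± 0.23, and −0.20 as deposited). Untreated, cdc25 had 12.3 FPKM in the pool labelled ∆wee1 and 20.4 FPKM in wild type, and there the authors' deposited table called it lower at q = 0.000819. The difference between the cdc25 ratios with and without H2O2 did not pass its own test (adjusted p = 1).

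MBF is the factor that activates genes at the start of S phase through the sequence ACGCGT. Of 19 MBF targets measured, 7 rose (36.8%, beside 7.49% of all genes) and none fell by the authors' deposited table. Their median log2 ratio was 0.85 beside 0.35 over all genes. The largest ratio was that of cdm1, which encodes a subunit of DNA polymerase delta, at 1.80 ± 0.79 and not called. The largest call was cdt2, which encodes a ubiquitin ligase adaptor that clears replication proteins, with 76.6 FPKM in the H2O2 pool labelled ∆wee1 and 30.9 FPKM in wild type (1.59 ± 0.21). Close behind came ssb1, the large subunit of replication protein A, with 157 FPKM under the ∆wee1 label against 65.8 FPKM in wild type (1.55 ± 0.21). Ribonucleotide reductase supplies the bases for replication, and the gene of its large subunit, cdc22, had 305 FPKM in the pool labelled ∆wee1 against 133 FPKM in wild type (1.5 ± 0.22). The other MBF targets that rose were the licensing factor gene cdc18 (1.37 ± 0.30), the cohesin genes psm3 (1.08 ± 0.39) and rad21 (0.94 ± 0.23), and the MBF repressor gene yox1 (0.88 ± 0.26). These genes were also higher in untreated cells, where the list's median was 0.82 and 10 of the 19 were called. By the median-scaled z test 4 of the 19 were higher under H2O2 and 0 lower.

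The promoters of the called MBF targets cdt2 and cdc22 show the repeated motif and are given for that reason. Each line is the 200 bases before the gene start that the files give, on the gene's strand, 5′ to 3′, read from RefSeq's ASM294v3 genome, with ACGCGT in capitals. The cdt2 stretch is I:2035674-2035873 on the minus strand, with motifs starting 153, 94 and 81 bases before the start, and the cdc22 stretch is I:4226758-4226957 on the plus strand, with motifs 50 and 40 bases before it.
cdt2: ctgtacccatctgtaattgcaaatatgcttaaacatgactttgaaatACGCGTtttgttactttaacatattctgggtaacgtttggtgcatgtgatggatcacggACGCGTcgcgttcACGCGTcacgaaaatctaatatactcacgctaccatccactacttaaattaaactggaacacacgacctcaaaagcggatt
cdc22: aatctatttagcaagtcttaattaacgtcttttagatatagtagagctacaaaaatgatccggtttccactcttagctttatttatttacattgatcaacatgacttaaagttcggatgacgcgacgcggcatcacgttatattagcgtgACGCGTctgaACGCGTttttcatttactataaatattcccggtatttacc

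Genes of mitosis and of cell separation held rises and no falls. Of 18 targets of the mitotic factors Fkh2, Sep1 and Mbx1, 9 rose (50%, beside 7.49% of all) and none fell by the authors' deposited table. Their median log2 ratio was 0.86. The cytokinesis gene etd1 had 33.7 FPKM in the H2O2 pool labelled ∆wee1 and 16.9 FPKM in wild type (1.25 ± 0.25). The ring protein gene cdc15 had 27.5 FPKM under the ∆wee1 label against 14.6 FPKM in wild type (1.17 ± 0.22). Besides slp1, other rises were in the kinase genes fin1 (1.15 ± 0.24) and plo1 (0.93 ± 0.22), in spo12 (1.04 ± 0.27), in the kinesin gene klp5 (0.91 ± 0.22) and in the exchange factor gene rgf3 (0.87 ± 0.24). Untreated, 9 of the 18 were also called higher, and by the median-scaled z test 3 of the 18 were higher under H2O2.

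The cell separation genes include the enzymes that cut the septum after division, and all 8 genes of that list rose by the authors' deposited table. Their median log2 ratio was 1.30, the highest of the 31 gene lists described here. The gene adg2, which is switched on at cell separation, had 127 FPKM in the H2O2 pool labelled ∆wee1 and 28.6 FPKM in wild type (2.42 ± 0.21), and 194 FPKM under the ∆wee1 label against 52.2 FPKM in wild type when untreated. The septum protein gene mid2 had 197 FPKM under the ∆wee1 label against 79.5 FPKM in wild type under H2O2 (1.61 ± 0.25). The glucanase gene eng1, whose product digests the primary septum, had 22.7 FPKM under the ∆wee1 label against 8.74 FPKM in wild type (1.56 ± 0.22). The glucanase gene agn1, which acts on the surrounding wall, stood at 54.8 FPKM under the ∆wee1 label against 29.3 FPKM in wild type (1.19 ± 0.25). Further ratios were 1.30 ± 0.42 for cfh4, 1.29 ± 0.25 for adg1 and 0.89 ± 0.27 for adg3. All 8 were also called higher in untreated cells, with a median of 1.12, and by the median-scaled z test 5 of the 8 were higher under H2O2.

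The promoters of eng1 and adg1 are given because 7 of the 8 cell separation genes hold CCAGCC or its complement GGCTGG between 250 bases before and 50 after the start. The capitals mark that motif, 146 bases before the start in eng1 (I:998486-998685, plus strand) and 69 bases before it in adg1 (I:5266590-5266789, minus strand), in ASM294v3 as above.
eng1: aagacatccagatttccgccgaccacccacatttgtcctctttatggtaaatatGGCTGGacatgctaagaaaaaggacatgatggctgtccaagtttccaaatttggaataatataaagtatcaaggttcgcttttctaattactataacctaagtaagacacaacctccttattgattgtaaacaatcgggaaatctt
adg1: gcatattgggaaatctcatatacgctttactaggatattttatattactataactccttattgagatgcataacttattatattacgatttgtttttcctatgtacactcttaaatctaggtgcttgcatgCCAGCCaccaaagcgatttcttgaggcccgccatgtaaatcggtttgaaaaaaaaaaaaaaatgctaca

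The structural genes of the dividing cell had medians close to that of all genes. Of 23 genes of the contractile ring and the septation network, 3 rose (13%, beside 7.49% of all genes), plo1, the GTPase gene spg1 (0.85 ± 0.25) and the ring scaffold gene rng2 (0.71 ± 0.21), and the median log2 ratio of 0.33 lay beside 0.35 over all genes. Of 21 spindle, kinetochore and checkpoint genes 2 rose (9.52%), with a median of 0.34. These were sad1, a spindle pole body gene with 77.4 FPKM in the H2O2 pool labelled ∆wee1 and 26.4 FPKM in wild type (1.82 ± 0.24), and cut2, the securin gene, with 22.5 FPKM under the ∆wee1 label against 10.9 FPKM in wild type (1.27 ± 0.29). These calls are those of the authors' deposited table, and by the median-scaled z test 0 of the 23 and 2 of the 21 were higher.

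Histone transcripts were among the most abundant that rose. All 11 histone genes measured had ratios above the median of all genes, 6 were called higher by the authors' deposited table and none lower, and the median log2 ratio was 1.0. The histone H3 gene hht1 had 2213 FPKM in the H2O2 pool labelled ∆wee1 and 1189 FPKM in wild type (1.21 ± 0.23). The H2B gene htb1 had 2214 FPKM under the ∆wee1 label against 1235 FPKM in wild type (1.15 ± 0.25). The other rises were in the H3 gene hht2 (1.12 ± 0.29), the H2A.Z gene pht1 (1.09 ± 0.21), the H2A gene hta2 (1.03 ± 0.22) and the H4 gene hhf1 (1.0 ± 0.22). Several histone genes encode identical proteins from near-identical sequence, so the counting could divide reads between copies, and single copies are uncertain.

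Replication genes were called at shares near those of all genes. Of 32 replication genes 2 rose (6.25%) and 1 fell (3.12%) by the authors' deposited table, beside 7.49% and 7.06% of all genes, with a median log2 ratio of 0.41. The rises were ssb1 and the helicase gene mcm2, which had 20.5 FPKM in the H2O2 pool labelled ∆wee1 and 14 FPKM in wild type (0.82 ± 0.23). The GINS complex gene psf3 fell, with 69.6 FPKM under the ∆wee1 label against 106 FPKM in wild type (−0.29 ± 0.27). Of 25 DNA damage checkpoint and repair genes none rose and 1 fell (4%). The fall was in uve1, an endonuclease gene with 24.4 FPKM under the ∆wee1 label against 32.8 FPKM in wild type. Its rescaled ratio of −0.11 ± 0.21 was within 1 standard error of 0. The median of the repair list was 0.31, and its largest ratio, which was not called, was 1.15 ± 0.63 for ctp1.

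Peroxide signalling genes were called higher at a share near that of all genes. Of 21 genes of the Sty1 cascade and its regulators the authors' deposited table called 2 higher (9.52%, beside 7.49% of all genes) and none lower, with a median log2 ratio of 0.51. The factor gene atf1 had 71.8 FPKM in the H2O2 pool labelled ∆wee1 and 44.3 FPKM in wild type (0.99 ± 0.20). The kinase gene srk1, which acts below Sty1 and restrains Cdc25, had 126 FPKM under the ∆wee1 label against 88.4 FPKM in wild type (0.81 ± 0.23). The stress kinase gene sty1 itself had 171 FPKM under the ∆wee1 label against 178 FPKM in wild type and was not called (0.25 ± 0.30, and −0.06 as deposited). The phosphatase gene pyp2, which turns Sty1 off, had 71.3 FPKM under the ∆wee1 label against 63.7 FPKM in wild type and was not called either (0.47 ± 0.25).

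Below Sty1 and Atf1, 6 of 16 stress genes rose (37.5%, beside 7.49% of all genes) and none fell by the authors' deposited table. All 16 targets had ratios above the median of all genes, and the median log2 ratio was 0.76. The stress-induced gene lsd90 had 386 FPKM in the H2O2 pool labelled ∆wee1 against 59.3 FPKM in wild type (2.99 ± 0.22), and 61.0 FPKM under the ∆wee1 label against 18.5 FPKM in wild type when untreated. The stress protein gene hsp9 had 8851 FPKM under the ∆wee1 label against 3411 FPKM in wild type (1.69 ± 0.27). The glutathione peroxidase gene gpx1 had 1974 FPKM under the ∆wee1 label against 1306 FPKM in wild type (0.91 ± 0.24), and the trehalose synthesis gene tps1 had 565 FPKM under the ∆wee1 label against 389 FPKM in wild type (0.85 ± 0.25). With atf1 and srk1, which are also in this list, these are the 6 rises. The catalase gene ctt1, a main defence against peroxide, was not called, with 515 FPKM in the H2O2 pool labelled ∆wee1 and 435 FPKM in wild type (0.56 ± 0.23). Untreated, ctt1 had 107 FPKM in the pool labelled ∆wee1 and 178 FPKM in wild type, and the authors' deposited table called it lower there. The difference between these ctt1 ratios was 1.09 ± 0.31 and did not pass its test (adjusted p = 0.251). By the median-scaled z test 3 of the 16 targets were higher under H2O2.

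The promoter of atf1 is given because it holds the Atf1 motif TGACGT on both strands, overlapping as the palindrome in capitals, 29 bases before the gene start. The stretch is II:1545994-1546193 on the plus strand of ASM294v3. Of the 16 targets, 7 hold TGACGT or its complement ACGTCA in the window from 250 bases before to 50 after the start. Among the targets that rose, atf1 and srk1 hold it, and lsd90, hsp9, gpx1 and tps1 do not. The other holders, rds1, gpd1, ish1, ntp1 and ctt1, were not called.
atf1: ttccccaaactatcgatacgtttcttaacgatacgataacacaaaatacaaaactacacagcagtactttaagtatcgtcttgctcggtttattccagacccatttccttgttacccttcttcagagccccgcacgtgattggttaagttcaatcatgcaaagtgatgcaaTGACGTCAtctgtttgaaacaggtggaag

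Pap1 targets and antioxidant enzymes differed in single genes. Of 11 Pap1 targets 2 rose (18.2%) and 1 fell (9.09%) by the authors' deposited table, beside 7.49% and 7.06% of all genes. Their median log2 ratio was 0.46. The sulfiredoxin gene srx1, whose product repairs overoxidised peroxiredoxin, had 736 FPKM in the H2O2 pool labelled ∆wee1 and 363 FPKM in wild type (1.33 ± 0.34), beside 45.3 FPKM under the ∆wee1 label and 20.6 FPKM in wild type when untreated. The glutathione transferase gene gst2 had 591 FPKM under the ∆wee1 label against 356 FPKM in wild type (1.04 ± 0.23). The drug exporter gene bfr1, which lies next to wee1 on the chromosome, was called lower with 21.9 FPKM under the ∆wee1 label against 29.4 FPKM in wild type, and its rescaled ratio was −0.11 ± 0.20. The peroxiredoxin gene tpx1 had 3111 FPKM in the pool labelled ∆wee1 and 2813 FPKM in wild type (0.46 ± 0.25), the thioredoxin reductase gene trr1 had 416 FPKM under the ∆wee1 label against 339 FPKM in wild type (0.61 ± 0.28), and pap1 had 102 FPKM under the ∆wee1 label against 96.5 FPKM in wild type (0.39 ± 0.21). None of these 3 was called. Among 25 antioxidant and glutathione enzymes, which include some of these, 4 rose (16%) and 1 fell (4%), with a median of 0.48. Beside srx1, gst2 and gpx1 the fourth rise was the transferase gene gst3, with 232 FPKM under the ∆wee1 label against 136 FPKM in wild type (1.08 ± 0.27), and the fall was the glutaredoxin gene grx4 (−0.16 ± 0.21). By the median-scaled z test 0 of the 25 enzymes and 0 of the 11 Pap1 targets differed in either direction.

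Chaperones showed 3 rises (15.8%, beside 7.49% of all genes) and no fall among 19 genes by the authors' deposited table. Their median log2 ratio was 0.37. The Hsp70 gene ssa1 had 1575 FPKM in the H2O2 pool labelled ∆wee1 and 811 FPKM in wild type (1.27 ± 0.27), and it shares long stretches of sequence with ssa2. The gene hsp3101, of the DJ-1 family, had 294 FPKM under the ∆wee1 label against 168 FPKM in wild type (1.11 ± 0.23). The small heat shock gene hsp16 had 4117 FPKM under the ∆wee1 label against 2880 FPKM in wild type (0.83 ± 0.25). The hsp90 gene had 2263 FPKM under the ∆wee1 label against 1790 FPKM in wild type and was not called (0.65 ± 0.30).

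**Figure D2:**
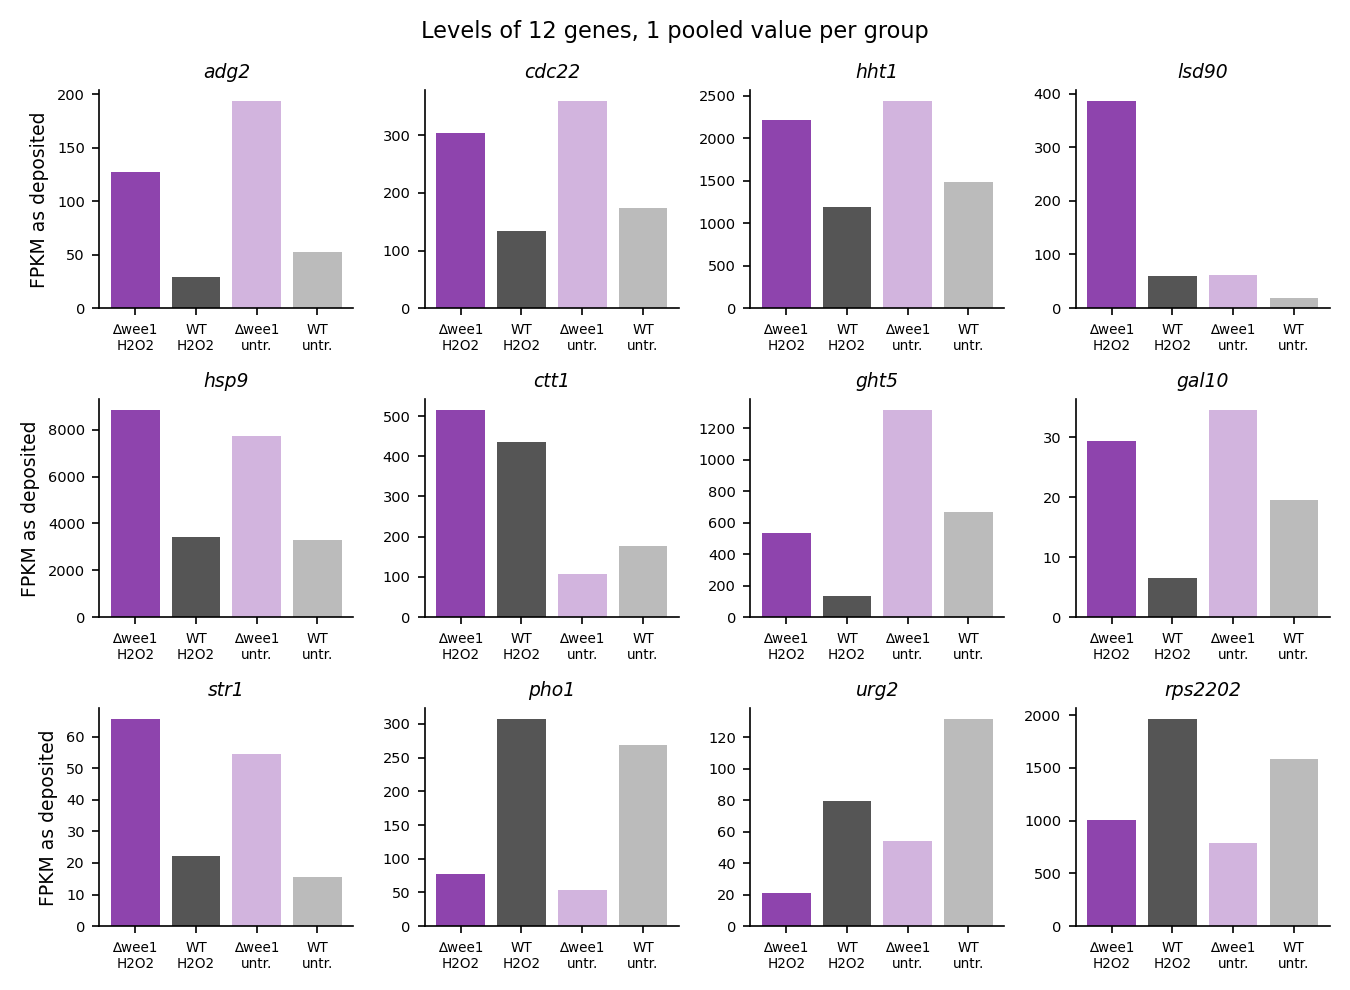
Deposited FPKM (vertical linear axes) of 12 genes in the H2O2 and untreated pools labelled ∆wee1 and wild type, 1 bar per pool since only pooled values are given. The bar for ght5 in the H2O2 pool labelled ∆wee1 (534 FPKM) is taller than that of wild type (135 FPKM). The bar for pho1 (77.3 FPKM) is shorter than that of wild type (308 FPKM).

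Genes of sugar uptake and use moved in both directions. Of 8 hexose transporter genes 3 rose (37.5%) and 2 fell (25%) by the authors' deposited table, beside 7.49% and 7.06% of all genes. The high-affinity glucose transporter gene ght5 had 534 FPKM in the H2O2 pool labelled ∆wee1 and 135 FPKM in wild type (2.29 ± 0.22), and 1316 FPKM under the ∆wee1 label against 669.7 FPKM in wild type when untreated. As deposited, its level was lower with H2O2 than without in both strains, a difference not tested here. The family members ght3, with 15.2 FPKM under the ∆wee1 label against 1.92 FPKM in wild type (2.69 ± 0.27), and ght7, with 3.96 FPKM under the ∆wee1 label against 0.861 FPKM in wild type (1.57 ± 0.30), rose at low levels. The falls were small, at −0.14 ± 0.20 for ght2 and −0.33 ± 0.31 for ght6.

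Of 16 glucose-repressed and galactose genes 7 rose (43.8%, beside 7.49% of all genes) and none fell by the authors' deposited table. Their median log2 ratio was 0.71. The 3 galactose genes lie side by side near the right end of chromosome II. The epimerase gene gal10 had 29.4 FPKM in the H2O2 pool labelled ∆wee1 and 6.56 FPKM in wild type (2.28 ± 0.34). The galactokinase gene gal1 had 69.8 FPKM under the ∆wee1 label against 19.6 FPKM in wild type (2.08 ± 0.25), and the transferase gene gal7 had 41.7 FPKM under the ∆wee1 label against 21.2 FPKM in wild type (1.24 ± 0.34). The invertase gene inv1, which splits sucrose, had 33.1 FPKM under the ∆wee1 label against 14.9 FPKM in wild type (1.40 ± 0.25). The other rises were in the dihydroxyacetone kinase gene dak2 (1.16 ± 0.26), in scr1, which encodes a repressor of such genes (0.87 ± 0.25), and in rst2, which encodes an activator (0.81 ± 0.27). The gluconeogenic gene fbp1 had 7.64 FPKM under the ∆wee1 label against 2.06 FPKM in wild type and was not called (1.72 ± 0.78).

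Glycolysis and fermentation showed 1 rise (5.56%) and 4 falls (22.2%) among 18 genes by the authors' deposited table, beside 7.49% and 7.06% of all. The median log2 ratio was 0.03, below the 0.35 of all genes, and it was −0.28 as deposited. The rise was the largest of any gene with a symbol and at least 5 FPKM: the enolase gene eno102 had 101 FPKM in the H2O2 pool labelled ∆wee1 and 6.97 FPKM in wild type (3.96 ± 0.39), and it lies near the left end of chromosome II. The alcohol dehydrogenase gene adh4 had 34.3 FPKM under the ∆wee1 label against 77.2 FPKM in wild type (−0.84 ± 0.21). The main pyruvate decarboxylase gene pdc101 had 2004 FPKM under the ∆wee1 label against 3120 FPKM in wild type (−0.33 ± 0.29), the pyruvate kinase gene pyk1 had 1862 FPKM under the ∆wee1 label against 2711 FPKM in wild type (−0.23 ± 0.29), and pdc102 had 0.355 FPKM under the ∆wee1 label against 1.88 FPKM in wild type (−0.91 ± 0.38).

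Cell wall genes held 9 rises (39.1%) and 1 fall (4.35%) among 23 by the authors' deposited table, beside 7.49% and 7.06% of all genes. Their median log2 ratio was 0.55. Of the 9, eng1 and agn1 are also in the cell separation list. The glucanase gene exg1 had 193 FPKM in the H2O2 pool labelled ∆wee1 and 63.5 FPKM in wild type (1.90 ± 0.21). The wall protein gene ecm33 had 1506 FPKM under the ∆wee1 label against 599 FPKM in wild type (1.64 ± 0.25). The glucanosyltransferase genes gas5, with 49.5 FPKM under the ∆wee1 label against 16.5 FPKM in wild type (1.82 ± 0.51), and gas1, with 185 FPKM under the ∆wee1 label against 81.3 FPKM in wild type (1.49 ± 0.21), build glucan chains into the wall. The SUR7 family gene pun1 had 47.1 FPKM under the ∆wee1 label against 14.3 FPKM in wild type (1.94 ± 0.38) and 86.6 FPKM under the ∆wee1 label against 86.7 FPKM in wild type when untreated, so its untreated levels were nearly equal. The other rises were in psu1 (0.86 ± 0.21) and the glucan synthase gene mok14 (0.75 ± 0.23), and the fall was in agn2 (−0.22 ± 0.22). By the median-scaled z test 6 of the 23 were higher and 0 lower.

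Iron and copper uptake genes split in direction. Of 16 genes 6 rose (37.5%) and 4 fell (25%) by the authors' deposited table, beside 7.49% and 7.06% of all genes. Their median log2 ratio was 0.53. The ferrichrome transporter gene str1 had 65.7 FPKM in the H2O2 pool labelled ∆wee1 and 22.1 FPKM in wild type (1.83 ± 0.21). The permease and oxidase that take up iron together are encoded by fip1, with 21.7 FPKM under the ∆wee1 label against 7.72 FPKM in wild type (1.66 ± 0.27), and fio1, with 6.84 FPKM under the ∆wee1 label against 2.06 FPKM in wild type (1.57 ± 0.27). The transporter gene str3 rose by 1.57 ± 0.29, the ferric reductase gene frp1 by 1.52 ± 0.28 and the iron-responsive regulator gene php4 by 0.96 ± 0.22 on the log2 scale. The clearest fall was in pcl1, which encodes a vacuolar iron transporter, with 75.8 FPKM in the pool labelled ∆wee1 and 193 FPKM in wild type (−1.02 ± 0.21). The other falls were small, at −0.22 ± 0.24 in the iron repressor gene fep1, −0.13 ± 0.18 in the siderophore gene sib1 and −0.11 ± 0.21 in the copper transporter gene ctr4. Outside the list, the heme uptake gene shu1 had 15.5 FPKM under the ∆wee1 label against 1.18 FPKM in wild type (3.11 ± 0.42), and the metallothionein gene zym1, which binds metals, had 628 FPKM under the ∆wee1 label against 125 FPKM in wild type (2.63 ± 0.24). Untreated, the same 6 of the 16 were called higher.

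Phosphate acquisition genes moved in both directions. Of 8 phosphate acquisition genes 1 rose (12.5%) and 3 fell (37.5%) by the authors' deposited table, beside 7.49% and 7.06% of all genes. The acid phosphatase gene pho1 had 77.3 FPKM in the H2O2 pool labelled ∆wee1 and 308 FPKM in wild type (−1.67 ± 0.22), and 53.7 FPKM under the ∆wee1 label against 269 FPKM in wild type when untreated. The phosphate transporter gene pho84 had 58.9 FPKM under the ∆wee1 label against 158 FPKM in wild type (−1.10 ± 0.24). The polyphosphate gene vtc4 fell by 0.29 ± 0.21 on the log2 scale, while their activator gene pho7 had 16.0 FPKM under the ∆wee1 label against 9.35 FPKM in wild type (1.0 ± 0.24).

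Of 13 nitrogen-regulated permease and protease genes 2 rose (15.4%) and 4 fell (30.8%) by the authors' deposited table, beside 7.49% and 7.06% of all. Their median log2 ratio was 0.12. The protease gene isp6 had 89.0 FPKM in the H2O2 pool labelled ∆wee1 and 47.5 FPKM in wild type (1.20 ± 0.28), and the ubiquitin ligase gene pub1 had 121 FPKM under the ∆wee1 label against 85.0 FPKM in wild type (0.81 ± 0.21). The falls lay between −0.34 ± 0.31 in the permease gene per1 and −0.11 ± 0.21 in aat1, with amt1 and isp4 between them.

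Uracil synthesis differs between the strains by genotype. Of 9 pyrimidine genes none rose and 5 fell (55.6%, beside 7.06% of all genes) by the authors' deposited table. The median log2 ratio was −0.20 with H2O2 and −0.47 untreated. None of the 9 was above the median of all genes. The uracil-regulated gene urg2, which encodes a uracil phosphoribosyltransferase, had 20.7 FPKM in the H2O2 pool labelled ∆wee1 and 79.4 FPKM in wild type (−1.58 ± 0.24). Its neighbours in regulation urg3, with 35.6 FPKM under the ∆wee1 label against 78.1 FPKM in wild type (−0.80 ± 0.22), and urg1, with 30.1 FPKM under the ∆wee1 label against 49.5 FPKM in wild type (−0.39 ± 0.22), were lower too. The synthesis gene ura3 had 126 FPKM under the ∆wee1 label against 187 FPKM in wild type (−0.25 ± 0.21), and ura1 had 87.9 FPKM under the ∆wee1 label against 126 FPKM in wild type (−0.20 ± 0.23). The disruption of wee1 and the working ura4 gene were introduced together, so their parts in these differences cannot be told apart.

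Mating and meiosis genes held 1 rise (3.85%) and 3 falls (11.5%) among 26 by the authors' deposited table, beside 7.49% and 7.06% of all genes. Their median log2 ratio was 0.23. The rise was in rep1, which encodes a meiotic activator, at 11.3 FPKM in the H2O2 pool labelled ∆wee1 and 5.83 FPKM in wild type (1.12 ± 0.34). The largest fall was in mfm2, at −1.16 ± 0.27, one of several M-factor genes of similar sequence. The others were in the adaptor gene ste4, with 12.7 FPKM under the ∆wee1 label against 28.8 FPKM in wild type (−0.82 ± 0.35), and the kinase gene byr1 (−0.33 ± 0.21). The master regulator gene ste11 had 2.86 FPKM under the ∆wee1 label against 3.64 FPKM in wild type and was not called (−0.03 ± 0.25). Among 11 flocculin genes and their regulators, which govern cell adhesion, gsf1 rose (0.89 ± 0.23), and pfl3 (−0.90 ± 0.22) and cbf12 (−0.41 ± 0.26) fell. These are 9.09% and 18.2% of the 11. The 3 Tf2 retrotransposon reading frames above the minimum held 1 call, Tf2-6 at −0.63, and reads of these near-identical copies cannot be placed with certainty.

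Cytoplasmic ribosomal protein genes lay lowest among the large groups. None of 139 rose and 90 fell (64.7%, beside 7.06% of all genes) by the authors' deposited table. The median log2 ratio was −0.23, with a range of −0.65 to 0.38. Only 1 of the 139 lay above the median of all genes. The most negative ratio was that of rps2202, with 1005 FPKM in the H2O2 pool labelled ∆wee1 and 1964 FPKM in wild type (−0.65 ± 0.22), and rpl102 had 429 FPKM under the ∆wee1 label against 810 FPKM in wild type (−0.60 ± 0.24). The abundant member rps1402 had 5124 FPKM under the ∆wee1 label against 8924 FPKM in wild type (−0.49 ± 0.26). The count of falls depends on the test: by the z test on the rescaled ratio 1 was lower, and by the median-scaled z test 8 were. Untreated, the median was −0.21 and the authors' deposited table called 37 lower. Many of these genes have a near-identical second copy, so values of single copies are uncertain, and the list was taken by symbol and includes 3 RNase P subunit genes, none of them called.

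Genes that build ribosomes lay near the median of all genes. Of 68 ribosome biogenesis genes none rose and 2 fell (2.94%, beside 7.06% of all genes) by the authors' deposited table. The falls were in gar1 (−0.22) and tsr2 (−0.24). The median log2 ratio of the 68 was 0.29 beside 0.35 over all genes. Untreated, 10 of the 68 were called higher. The list was taken by symbol and also holds imp2, a ring protein gene that is in the mitotic list as well.

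Protein turnover genes lay above the median. Of 31 proteasome genes 30 had ratios above the median of all genes, and the median log2 ratio was 0.55. Only 3 were called higher by the authors' deposited table (9.68%, near the 7.49% of all genes). The rises were pre9, a core subunit gene with 316 FPKM in the H2O2 pool labelled ∆wee1 and 215 FPKM in wild type (0.87 ± 0.27), and the regulatory subunit genes rpn2 (0.77 ± 0.22) and rpt1 (0.77 ± 0.21). Of 24 autophagy genes 5 rose (20.8%, beside 7.49% of all genes) and none fell, with a median of 0.62. The gene atg8, whose product coats the autophagosome membrane, had 157 FPKM under the ∆wee1 label against 89.1 FPKM in wild type (1.12 ± 0.30). The protease gene atg4, which processes Atg8, had 21.2 FPKM under the ∆wee1 label against 12.8 FPKM in wild type (0.98 ± 0.25), and the kinase gene atg1 had 20.1 FPKM under the ∆wee1 label against 12.2 FPKM in wild type (0.97 ± 0.25). The conjugation genes atg3 (0.85 ± 0.29) and atg16 (0.83 ± 0.26) were the other rises. None of the 24 was called in untreated cells. By the median-scaled z test 0 of the 31 proteasome genes and 0 of the 24 autophagy genes were higher.

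Mitochondrial genes encoded in the nucleus lay at the median. Of 48 respiratory chain and ATP synthase genes none rose and 3 fell (6.25%, beside 7.06% of all genes) by the authors' deposited table. The falls were in the succinate dehydrogenase genes sdh1 (−0.18 ± 0.23), sdh2 (−0.25 ± 0.21) and sdh3 (−0.19 ± 0.23). The median log2 ratio of the 48 was 0.34. Of 54 mitochondrial ribosomal protein genes, 53 of them tested, mrps12 (0.80 ± 0.23) and rsm10 (0.80 ± 0.26) rose (3.77%, beside 7.49% of all genes). Their list had a median of 0.38.

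Among all genes that rose and had a symbol and at least 5 FPKM, several of the largest lay outside these lists. After eno102 came prl65, which RefSeq carries as an uncharacterised coding gene, with 804 FPKM in the H2O2 pool labelled ∆wee1 and 69.9 FPKM in wild type (3.81 ± 0.29). The alpha-galactosidase gene mel1, which releases galactose from sugar chains, had 16.9 FPKM under the ∆wee1 label against 0.456 FPKM in wild type (3.75 ± 0.63). The protein repair gene pcm2, a methyltransferase of damaged aspartate residues, had 16.9 FPKM under the ∆wee1 label against 1.06 FPKM in wild type (3.30 ± 0.31). Smaller rises were those of the alanine racemase gene alr2 (2.14 ± 0.42) and the oxidoreductase gene osr1 (1.92 ± 0.27).

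Several of the largest falls with a symbol also lay outside these lists. The gene ecl3, of a family tied to lifespan, had 12.1 FPKM in the H2O2 pool labelled ∆wee1 and 80.3 FPKM in wild type (−2.33 ± 0.83). The gene ucp6 had 4.29 FPKM under the ∆wee1 label against 22.5 FPKM in wild type (−1.86 ± 0.68). The biotin transporter gene vht1 had 126 FPKM under the ∆wee1 label against 323 FPKM in wild type (−1.03 ± 0.35). The MBF activator gene rep2 had 10.6 FPKM under the ∆wee1 label against 27.4 FPKM in wild type (−0.99 ± 0.48), while 7 of the 19 MBF targets rose. Further falls were in the RNA-binding protein gene puf5 (−1.02 ± 0.22), the transporter gene mfs1 (−0.88 ± 0.22) and the F-box gene pof5 (−0.82 ± 0.27). Without a symbol, and chosen after its values were seen, SPAC186.05c, which encodes a GDT1-like protein, stood lowest of all with 1.64 FPKM in the H2O2 pool labelled ∆wee1 and 74.8 FPKM in wild type (−4.56 ± 0.30), and 1.24 FPKM under the ∆wee1 label against 83.0 FPKM in wild type when untreated.

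Much of the difference was also present without H2O2. In untreated cells the authors' deposited table called 235 of 4939 genes higher (4.76%) and 232 lower (4.7%). Of the 370 genes that rose with H2O2, 161 were also higher untreated, which is 43.5% of the H2O2 rises and 68.5% of the untreated ones. Of the 349 that fell, 164 were also lower untreated, which is 47.0% and 70.7% of these lists. Over the 4949 genes the ratios with and without H2O2 had a Pearson correlation of 0.760 and a Spearman correlation of 0.707, as a description across genes, which are not independent replicates. These ratios share no sample, but each strain's pools share its background, gene lengths and sequence.

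Few genes passed a test of the difference between the ratios with and without H2O2. A z test with Benjamini-Hochberg adjustment over 4898 genes found 2 genes whose ratio was more positive with H2O2 (0.0408%) and none more negative, while 72 (1.47%) and 9 (0.184%) had an unadjusted p under 0.05. The median difference over all genes was 0.11 after rescaling. The test did not subtract it, so the numbers in each direction depend on the scaling. The first, SPAC2H10.01, encodes a transcriptional regulatory protein, and it had 61.6 FPKM in the H2O2 pool labelled ∆wee1 against 37.4 FPKM in wild type, but 42.9 FPKM under the ∆wee1 label against 68.8 FPKM in wild type untreated. It was the only gene called in opposite directions, with a difference of 1.48 ± 0.29 (adjusted p = 0.00163). The second, SPBPB21E7.04c, is annotated as a probable catechol O-methyltransferase and had 95.5 FPKM under the ∆wee1 label against 9.69 FPKM in wild type with H2O2 and 197 FPKM under the ∆wee1 label against 59.7 FPKM in wild type untreated, a difference of 1.55 ± 0.36 (adjusted p = 0.0301). Neither has a symbol, and both were chosen after their values were seen. Among genes that did not pass, the differences were 1.75 ± 0.46 for pun1 (adjusted p = 0.175) and 1.11 ± 0.34 for ght5 (adjusted p = 0.369). The standard errors are wide for most genes, with a robust SD of 0.457 for z values centred on the median difference. A gene that did not pass is therefore not shown to be alike in both conditions.

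**Figure D3:**
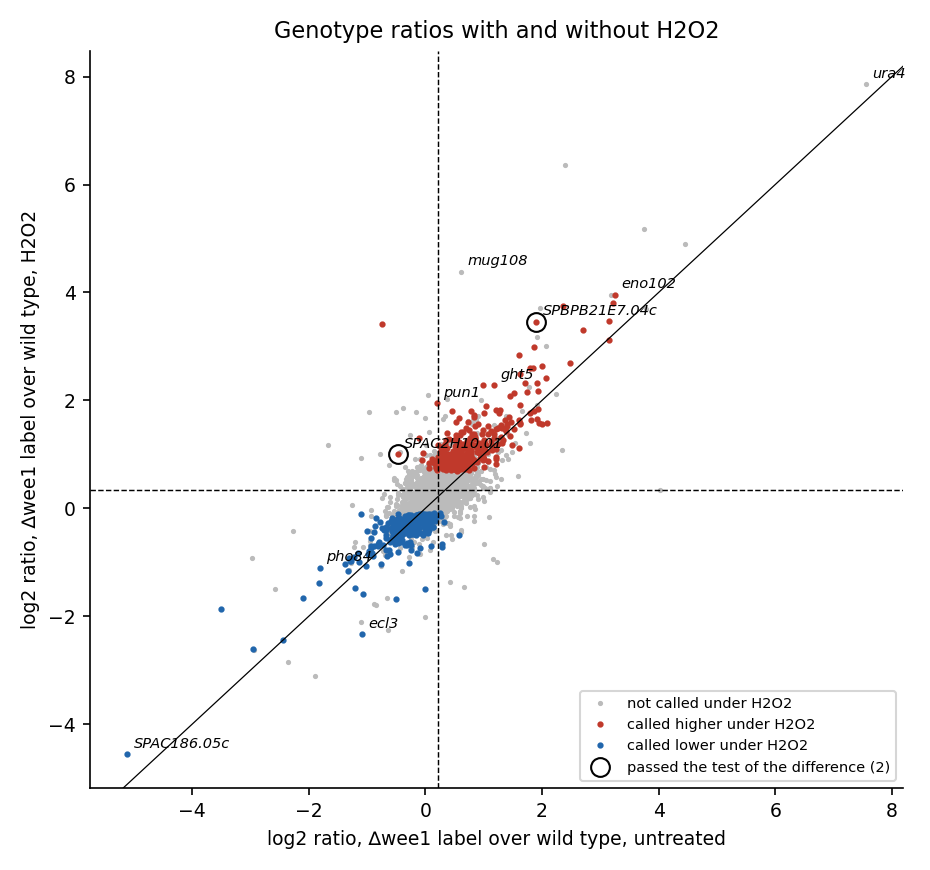
Log2 ratio of the pool labelled ∆wee1 over wild type under H2O2 (vertical axis) against the same ratio in untreated cells (horizontal axis), both of rescaled FPKM + 1, 1 point per gene. The points follow a common line (Pearson correlation 0.760 across genes), and SPAC2H10.01 lies in the quadrant of a positive ratio with H2O2 (1.01) and a negative one without (−0.47).

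Calls near chromosome ends differed from end to end. Within 100 kb of an end, 32 of 135 genes tested rose (23.7%) and 22 fell (16.3%), while elsewhere 338 of 4805 rose (7.03%) and 327 fell (6.81%), by the authors' deposited table. The left end of chromosome I held 11 rises and 1 fall among 22 genes, with a median log2 ratio of 0.95, among them ght3, shu1, str3 and dak2. The left end of chromosome II held 7 rises and 1 fall among 17, with a median of 1.57, among them eno102 and ght7. At the right end of chromosome II 6 rose and 6 fell among 18, the galactose genes among the rises and pho1, pho84 and ecl3 among the falls. The right end of chromosome I held 5 rises and 4 falls among 18. At the left end of chromosome III 2 rose (7.69%, near the 7.49% of all genes) and 3 fell among 26, and at its right end 1 rose and 7 fell among 34. Untreated, 22 genes near ends were higher and 23 lower. Sequence near chromosome ends is in part duplicated between them, so reads could be divided among copies.

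**Figure D4:**
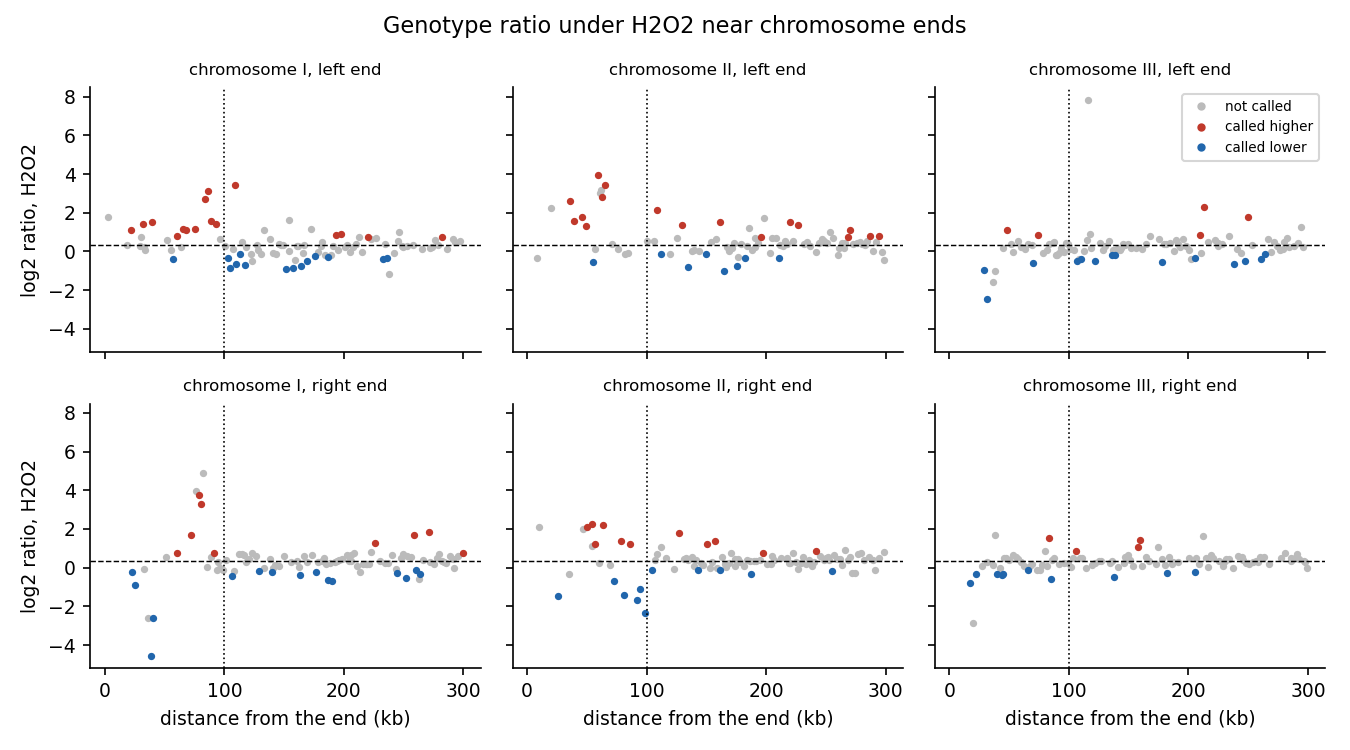
Log2 ratio of the pool labelled ∆wee1 over wild type under H2O2 (vertical axis, rescaled FPKM + 1) for genes by distance from the nearest chromosome end (horizontal axis, kb), 1 panel per end, with called genes in colour. The left ends of chromosomes I and II show 11 and 7 rises with 1 fall each within 100 kb (dotted line), and the right end of chromosome III shows 1 rise and 7 falls there.

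The chromosomes had similar medians, of 0.34, 0.34 and 0.37 for I, II and III. Within 50 kb of wee1, 2 of 36 genes rose (5.56%) and 3 fell (8.33%), near the 7.49% and 7.06% of all genes. Within 50 kb of ura4, 1 of 42 rose (2.38%) and 6 fell (14.3%). Genes that rose had a median coding length of 1290 bases, genes that fell 828 bases and all genes 1149 bases. Without the ribosomal proteins, the genes that fell had a median of 1074 bases. A coding-region intron was present in 35.9% of the genes that rose, 33.2% of those that fell and 47.3% of all. Among the 1237 genes of highest mean FPKM 103 rose (8.33%) and 206 fell (16.7%). Without the ribosomal proteins 103 of 1102 rose (9.35%) and 117 fell (10.6%), beside 7.71% and 5.39% of all genes without them.

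Promoter motifs were counted on both strands from 250 bases before to 50 after the gene start, in 4942 genes, as a description with no test. ACGCGT, the MBF motif, stood in 5.98% of genes that rose, 2.30% of those that fell and 3.01% of all. CCAGCC, found in the cell separation promoters above, stood in 8.97% of those that rose, 3.16% of those that fell and 3.01% of all. The forkhead motif GTAAACA stood in 26.6% of genes that rose and 16.7% of all, and in 14 of the 18 mitotic targets. The Atf1 motif TGACGT stood in 9.78% of genes that rose and 5.77% of all. The Pap1 motif TTACTAA stood in 12% of those that rose and 12.7% of all. Seen from the motif, 22.1% of genes with CCAGCC rose against 6.99% of genes without it, 14.8% of genes with ACGCGT rose against 7.22% without, and 7.03% of genes with TTACTAA rose against 7.51% without.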

How the data were processed

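RNA of 8 libraries was measured by poly(A)-selected, stranded RNA-seq (TruSeq, per the labels' protocols), and groups were taken from the sample titles. The submitters' processing notes name cutadapt, HISAT2 and Cuffdiff as the tools of the authors. Their versions, the build and the strand option were not given in the sources used here. In the deposited matrix each group has 1 pooled FPKM value per gene, so depth is unknown. Per the file headers, the authors' table of comparisons holds p-values, q-values, log2 fold changes and a test score for 6 pairs of groups. The authors' lowest p-value is 5e-05, and their p-values are smaller than their statistics imply (by a median factor of 1.42 in normal deviates), which makes the standard errors used here the wider reading.

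Here FPKM were rescaled to equal sums over the genes compared (factors 1.04 and 0.839 for the H2O2 pools labelled ∆wee1 and wild type, 1.15 and 0.997 for the untreated ones), and log2 ratios have 1 FPKM added to both pools, so changes of low genes are understated. Standard errors were solved per pool from the fold changes and statistics in the authors' deposited table. The planned branch with limma for values per library was not used, since the files give pooled values. A z test with Benjamini-Hochberg adjustment tested the difference between H2O2 and untreated ratios, and it was tested on simulated data. Motif windows came from the files' gene starts in RefSeq's ASM294v3. The files name no build, but 100% of 4942 genes lie on the same chromosome there and 99.9% of RefSeq coding regions lie inside the files' gene spans. Only 52.2% of the genes have the same start coordinate in RefSeq and 51.3% the same end, so motif windows and distances depend on the files' gene spans.

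The 31 gene lists and the genes compared were chosen with earlier results of these data known, so no list is independent evidence. Named genes are the 3 strain markers, 18 genes of the Cdc2 switch and the stress and nutrient responses, the 15 largest rises and 15 largest falls with a symbol and at least 5 FPKM, and 4 genes per list with the largest absolute ratio, 140 in all, of which 77 share a locus with another gene. Other list members named in the text were chosen after their values were seen. Reads of overlapping genes cannot be told apart where they share a strand, nor on opposite strands, since the strand option is unknown. Alternatives were other scalings, pseudocounts of 0.1 and 5, other minimum levels, stricter calls, z tests and genes in a locus of their own. Python 3.11.15, numpy 2.4.6, scipy 1.17.1, pandas 2.3.3 and matplotlib 3.10.9 were used. Some members of the lists are not reported here.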

Additional observations from a re-analysis of the deposited data

Results flagged for a closer look

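In 2 genes the ratio of the pool labelled ∆wee1 over wild type differed between H2O2-treated and untreated cells by the z test of that difference. SPAC2H10.01, which encodes a transcriptional regulatory protein, had a log2 ratio of 1.01 ± 0.21 with H2O2 and −0.47 ± 0.20 without, a difference of 1.48 ± 0.29 (adjusted p = 0.00163). SPBPB21E7.04c, a probable catechol O-methyltransferase gene near the left end of chromosome II, had 3.46 ± 0.28 with H2O2 and 1.91 ± 0.22 without, a difference of 1.55 ± 0.36 (adjusted p = 0.0301). The second shares a locus with another gene in the files.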

How the results depend on the processing

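The counts of 370 genes higher and 349 lower moved by over 1.5 times under some other calls and in a smaller set of genes. They were 230 and 188 at q under 0.01, and 170 and 17 at 2-fold or more. By the z test on the rescaled ratio they were 571 and 34, and by the median-scaled z test (added after the data were seen) 126 and 83. Among the 1712 genes tested in a locus of their own they were 213 (12.4%) and 179 (10.5%). These shares are higher than the 7.49% and 7.06% of all genes, although the counts are lower. The counts of 370 and 349 stayed within 1.5 times under the other scalings, pseudocounts and minimum levels. Scalings and pseudocounts enter a call only through the sign of the ratio, so these settings could hardly move the counts. The 2 genes of the H2O2 minus untreated test became 1 as deposited, with median or upper-quartile scaling, in loci of their own and at an adjusted p under 0.01. The cause was not tested, except that the last and the locus setting are narrower by construction. No called gene among the 140 named changed sign, which the call rule fixes for values as deposited. The 3 named genes that turned negative as deposited and with median or upper-quartile scaling (cdc2, cdc25 and sty1) were not called. Of the 140, 15 lost their call at q under 0.01, 33 at 2-fold, 11 by the z test on the rescaled ratio (10 gained one) and 31 by the median-scaled z test (1 gained one). List medians changed sign as deposited and with median scaling for flocculins, glycolysis, mating, nitrogen, phosphate and ribosome biogenesis genes, and with upper-quartile scaling for the same lists without ribosome biogenesis. No paired analysis was possible because the files give pooled values per group, and leaving out each replicate was not run for the same reason. Depth is unknown, so no detection limit is given.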
